A study of Mus musculus with 48 samples.

Results

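Immediate early response genes are switched on within minutes of a stimulus, without new protein synthesis, and their RNA is short-lived. The 10 described here are the AP-1 subunits *Fos*, *Fosb*, *Jun* and *Junb*, the transcription factors *Atf3*, *Egr1* and *Klf6*, the nuclear response gene *Ier2*, and the negative regulators *Dusp1* and *Zfp36*. They were taken by gene symbol from the 55401 rows of the count table, and all 10 were among the 14618 genes with enough counts to be tested. Whole colon was sequenced from 24 control and 24 *Bmal1*IEC-/- mice, with 4 mice of either genotype per group at 6 circadian times (CT1, CT5, CT9, CT13, CT17 and CT21), in order to follow the colon over a day when the epithelial clock is lost. All were male C57BL/6J mice of 18 to 20 weeks with both *Bmal1* alleles floxed, killed on the second day of constant darkness. *Bmal1*IEC-/- mice carried 1 Villin-Cre allele (*Bmal1*fl/fl x Villin CRE/wt), which deletes the clock gene *Bmal1* in intestinal epithelial cells, whereas their control littermates (*Bmal1*fl/fl x Villin wt/wt) had no Cre. Villin-Cre acts in the epithelium, so the muscle, stroma and immune cells of the same tissue keep *Bmal1*.

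As background, Fos and Jun family proteins pair to form AP-1, a factor that binds DNA after growth factor, cytokine or stress signals pass through the MAP kinases. Dusp1 removes phosphate from MAP kinases and Zfp36 speeds the decay of cytokine and early response mRNAs, so both act as brakes. In the intestine these genes respond to contact with microbes, injury and food, and Egr1 and Klf6 are linked to epithelial growth and repair.

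The libraries held 3144997 to 4785844 counts, and the gene with most counts took 2.36% to 4.80% of them. *Arntl*, the gene for Bmal1, swung in control mice from a mean of 26.2 normalized counts at CT9 to 258 at CT1, while the *Bmal1*IEC-/- means stayed between 113 and 138. All 4 *Bmal1*IEC-/- mice were below all 4 control mice at CT1 and at CT21 and above them at CT9 and at CT13. Counts per gene do not show the deleted stretch on its own. Markers of epithelium, goblet cells, smooth muscle and fibroblasts were all detected. Of the *Bmal1*IEC-/- mice at CT1, replicates SV384 and SV385 were not included in the study's rhythm analysis. In SV385, 6 smooth muscle markers summed to 881 CPM (counts scaled to a common library size) and 6 fibroblast markers to 419 CPM, against 3162 to 5620 CPM and 874 to 1736 CPM in the 46 other mice. Its 7 epithelial markers summed to 10082 CPM against 4881 to 7842 CPM. SV385 lay outside the range of the 46 others in 9 of 12 marker lists and SV384 in 2 of 12. SV384 was inside that range for smooth muscle (3371 CPM), fibroblast (1629 CPM) and epithelial markers (7611 CPM), and outside it for goblet cell markers (16003 CPM against 16420 to 28312 CPM) and for markers of interstitial cells of Cajal (181 CPM against 219 to 391 CPM). Both mice are in all values below unless the other 46 mice, or the other 22 *Bmal1*IEC-/- mice, are named. In bulk tissue, fewer cells of a type and less RNA per cell cannot be told apart.

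The stretch before the start of 4 of these genes is shown, because clock factors bind the E-box CACGTG and cAMP-responsive factors bind the element TGACGTCA or its core TGACG. Each is the 250 bases before the RefSeq start on GRCm38.p6, read towards the gene, with these motifs on either strand in capitals. *Klf6* lies at chr13:5861239-5861488 on the plus strand, *Dusp1* at chr17:26508473-26508722 on the minus strand, *Junb* at chr8:84978749-84978998 on the minus strand and *Fos* at chr12:85473640-85473889 on the plus strand. The end of the *Klf6* stretch overlaps the first exon as GENCODE places it, and the *Dusp1* stretch lies inside a longer GENCODE gene model.
Klf6: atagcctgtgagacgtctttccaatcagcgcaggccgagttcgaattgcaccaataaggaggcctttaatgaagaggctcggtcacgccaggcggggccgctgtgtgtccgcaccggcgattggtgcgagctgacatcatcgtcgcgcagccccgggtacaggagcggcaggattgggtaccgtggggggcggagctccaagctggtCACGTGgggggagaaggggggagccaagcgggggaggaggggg
Dusp1: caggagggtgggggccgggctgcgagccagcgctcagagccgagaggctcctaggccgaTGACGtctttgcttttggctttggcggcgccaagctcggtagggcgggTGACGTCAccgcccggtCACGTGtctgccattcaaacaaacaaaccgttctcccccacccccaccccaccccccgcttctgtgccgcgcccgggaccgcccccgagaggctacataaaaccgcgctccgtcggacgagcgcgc
Junb: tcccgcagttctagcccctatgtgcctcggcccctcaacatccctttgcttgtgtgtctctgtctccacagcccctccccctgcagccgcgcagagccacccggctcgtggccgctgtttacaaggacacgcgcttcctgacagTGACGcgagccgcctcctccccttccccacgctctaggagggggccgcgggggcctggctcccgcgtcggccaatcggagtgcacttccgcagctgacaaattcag
Fos: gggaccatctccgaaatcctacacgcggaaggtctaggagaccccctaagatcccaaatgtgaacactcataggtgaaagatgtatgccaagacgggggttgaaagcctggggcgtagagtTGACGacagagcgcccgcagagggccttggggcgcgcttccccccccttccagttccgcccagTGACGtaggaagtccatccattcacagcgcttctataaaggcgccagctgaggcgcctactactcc

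The E-box was found in 2 of 8 members searched, 43 to 38 bases before the start of *Klf6* and 126 to 121 bases before that of *Dusp1*, and in 6.02% of 32851 mouse promoter windows of this length. The full element TGACGTCA was in *Dusp1* alone (1.55% of all windows). The core TGACG was in 5 of 8 members (*Atf3*, *Fosb*, *Junb*, *Fos* and *Dusp1*) and 17.8% of all windows. Every TGACGTCA holds this core on both strands, and no E-box here overlapped a core. A CArG box, the site of serum response factor, was matched in 1 of 8 (*Zfp36*) and in 1.47% of all windows, and the AP-1 site TGANTCA, with C or G in the middle, in 0 of 8 and 4.46%. A match describes letters in this window only. The sequences of *Egr1* and *Ier2* were not used here.

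Per kilobase of exon, *Klf6* stood highest with 198 ± 66.8 normalized counts per kb (SD, n = 48 mice). *Fos* (62.6 ± 32.3), *Zfp36* (60.5 ± 13.6), *Jun* (53.6 ± 10.6) and *Ier2* (49.0 ± 19.2) followed on this scale, and then *Dusp1* (27.4 ± 6.83), *Atf3* (26.9 ± 10.2), *Junb* (20.9 ± 10.6) and *Egr1* (17.9 ± 13.7). *Fosb* was far lower, with 1.62 ± 1.16 normalized counts per kb, and had 3 or fewer counts in 5 of 48 mice, where its level is close to the limit that a count of 0 allows. Neighbours from *Fos* to *Ier2* differed by less than their spread, as did those from *Dusp1* to *Egr1*. *Fos* was above *Zfp36* in 20 of 48 mice and *Dusp1* above *Atf3* in 26 of 48. The steps from *Klf6* to *Fos* (46 of 48 mice), *Ier2* to *Dusp1* (45 of 48) and *Egr1* to *Fosb* (48 of 48) were kept in nearly every mouse.

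Mice of the same group differed widely in these genes. The biological coefficient of variation, the spread between mice of a group beyond counting error relative to the mean, had a median of 0.293 over the 10 members and 0.128 over all genes tested. *Fos* had 0.370, above 99.6% of 1322 genes of like level (within 0.25 on the log2 CPM scale). *Egr1* had 0.459 and stood above 99.6% of 1202 such genes. *Jun* was the steadiest member, with 0.132 and a place above 77.9% of genes of like level.

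**Figure D1:**
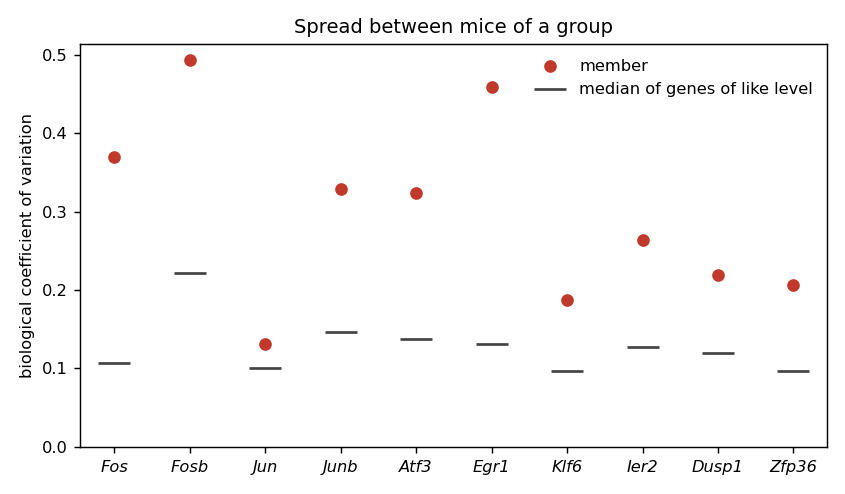
Biological coefficient of variation (y axis, no unit) of each immediate early gene (red point) and the median of tested genes of like level (bar), from all 48 mice. Every point lies above its bar, from 0.132 against 0.101 for *Jun* to 0.459 against 0.131 for *Egr1*.

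In control mice, 4 of 10 members changed over the day, and they did so in opposite phases. *Junb* and *Ier2* were lowest at CT1 and highest at CT13, whereas *Egr1* and *Klf6* were highest at CT1 and lowest at CT13. These 4 passed both JTK_cycle, a rank test for 24 h rhythms (adjusted p under 0.05, background 49.7% of genes tested), and edgeR's quasi-likelihood test of any difference between times (adjusted p under 0.05, background 40.2%). The members' share of 4 in 10 was thus no higher than that of all genes.

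**Figure D2:**
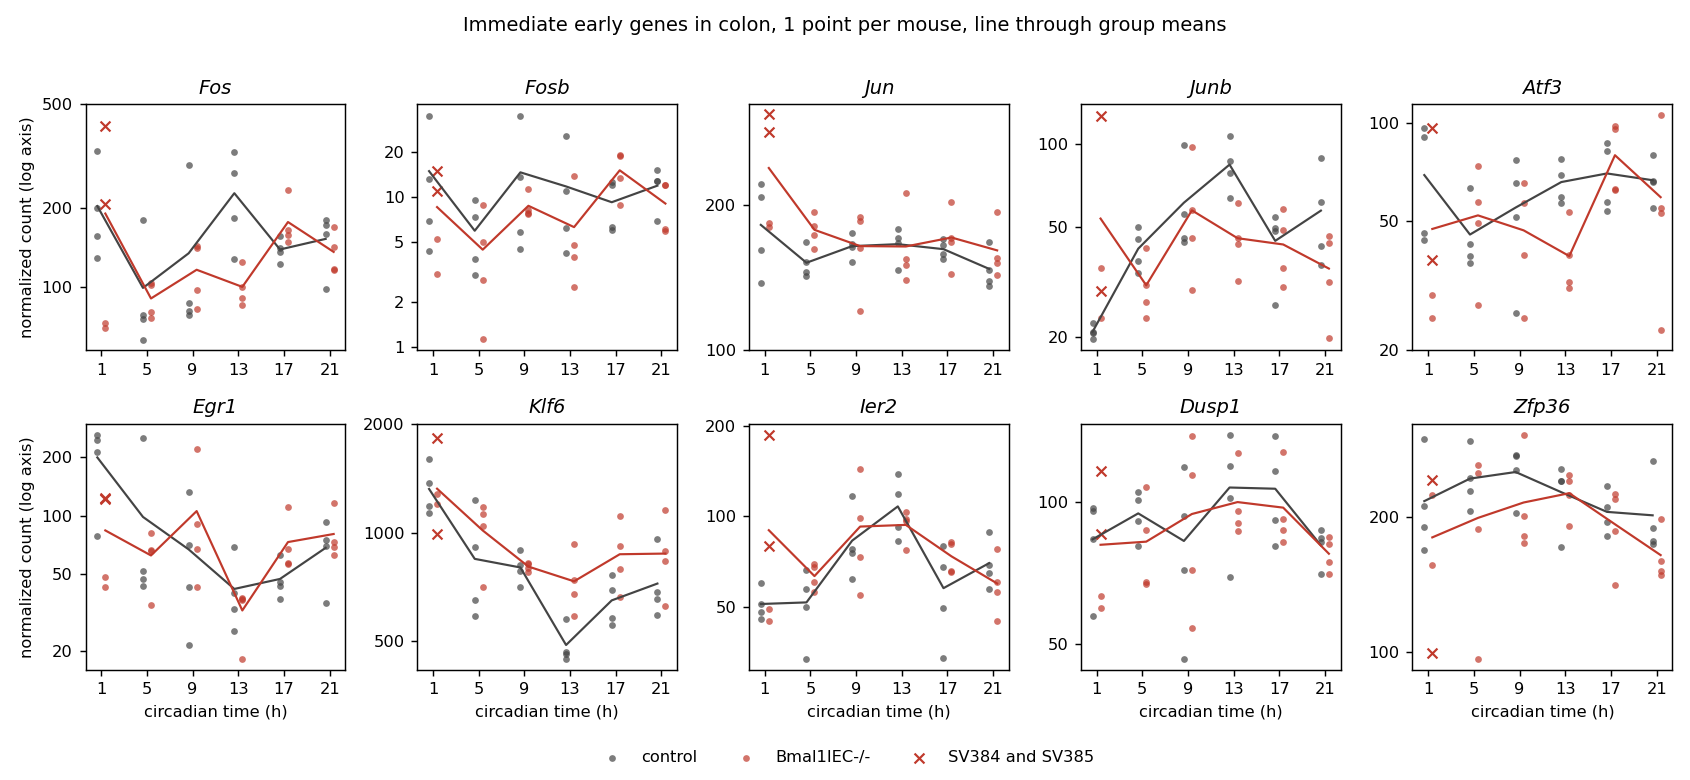
Normalized counts (y axes, logarithmic) of the 10 immediate early genes against circadian time in hours, 1 point per mouse with lines through the means of 4 mice, control in grey and *Bmal1*IEC-/- in red, with crosses for SV384 and SV385. In control mice *Junb* rose from a mean of 20.97 at CT1 to 84.0 at CT13 while *Klf6* fell from 1321 to 489.

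*Junb* encodes an AP-1 subunit that often restrains the activity of Jun. Its normalized counts in control mice were 19.7, 20.7, 20.96 and 22.5 at CT1 and 63.9, 78.6, 86.9 and 107 at CT13. The highest and lowest times did not overlap, a 4.01-fold span of means (84.0 ± 17.8 and 20.97 ± 1.15, SD, n = 4 each). Its rhythm peaked at 14 h in JTK_cycle (adjusted p = 0.00057 over 24 mice), and edgeR's test over the 6 times gave an adjusted p of 0.00155. In *Bmal1*IEC-/- mice *Junb* was 23.4, 29.4, 35.6 and 126 at CT1 and 32.0, 43.5, 45.8 and 61.1 at CT13. These overlapped, with 1 mouse, SV385, far above the rest at CT1. Neither test was passed (adjusted p = 0.348 in JTK_cycle and 0.281 in edgeR). *Junb* shares 173 exon bases with *Prdx2* on the opposite strand, and it is not stated whether the counting used strand.

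*Ier2*, a nuclear protein gene induced by growth factors, followed the phase of *Junb*. Control mice had 45.7, 48.1, 51.0 and 60.03 normalized counts at CT1 and 82.7, 92.2, 119 and 139 at CT13. The 2 times did not overlap, and the means differed 2.11-fold (108 ± 25.4 against 51.2 ± 6.26, SD, n = 4 each). The rhythm peaked at 14 h (JTK_cycle adjusted p = 0.00367) and edgeR gave an adjusted p of 0.0101 over the 6 times. The *Bmal1*IEC-/- mice had 77.7, 96.3, 98.0 and 103 at CT13, and at CT1 44.8, 49.3, 79.7 and 186, the last again SV385. Over 24 *Bmal1*IEC-/- mice the rhythm was not called (JTK_cycle adjusted p = 0.0793). Over the 22 mice without SV384 and SV385 it was (adjusted p = 0.00123).

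*Egr1* encodes a zinc finger factor that is among the first induced by growth signals. Its normalized counts in control mice were 78.4, 213, 248 and 261 at CT1 and 25.6, 33.1, 40.2 and 69.0 at CT13. All CT1 mice were above all CT13 mice, with means 4.77-fold apart (200.1 ± 83.6 and 41.9 ± 19.0, SD, n = 4 each). JTK_cycle placed the peak at 0 h (adjusted p = 0.00685) and edgeR gave an adjusted p of 0.000771 over the 6 times. In *Bmal1*IEC-/- mice *Egr1* was 42.8, 48.2, 121 and 124 at CT1 and 18.3, 36.8, 37.2 and 37.6 at CT13. The lowest time was again CT13, and these times did not overlap either, but the rhythm was not called (JTK_cycle adjusted p = 0.273, edgeR 0.123). The highest *Bmal1*IEC-/- mean was at CT9 instead (106 ± 80.2, SD, n = 4), with SV410 at 222. Without SV384 and SV385 the *Bmal1*IEC-/- mean at CT1 was 45.5.

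*Klf6* encodes a zinc finger factor known as a growth suppressor, and it was the member with a rhythm called in both genotypes. Control mice had 1135, 1183, 1371 and 1595 normalized counts at CT1 and 448, 460.2, 469 and 579 at CT13. *Bmal1*IEC-/- mice had 989.6, 1201, 1279.9 and 1823 at CT1 and 587, 678, 738 and 931 at CT13. In neither genotype did CT1 and CT13 overlap, and the means fell 2.703-fold in control mice and 1.80-fold in *Bmal1*IEC-/- mice. JTK_cycle placed the peak at 2 h in both, with an adjusted p of 0.000198 in control mice and 0.00454 in *Bmal1*IEC-/- mice. Without SV384 and SV385 the *Klf6* rhythm was still called by JTK_cycle (adjusted p = 0.0213), while edgeR's test over the 6 times in *Bmal1*IEC-/- mice went from an adjusted p of 0.00723 to 0.0769.

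Of the 10 members, *Klf6* was the only one with a rhythm in *Bmal1*IEC-/- mice over all 24 (1 of 10 by JTK_cycle, background 29.2%). Adjusted over genes as well, the JTK_cycle value of *Klf6* in these 24 mice was 0.0352. Over 22 mice there were 4 (background 29.1%), with *Ier2*, *Fos* (adjusted p = 0.00902) and *Dusp1* (adjusted p = 0.0466) added. These JTK_cycle values over 22 mice are adjusted over phases only. In edgeR's test over times, *Jun* (adjusted p = 0.0172) and *Klf6* were called in *Bmal1*IEC-/- mice (2 of 10, background 28.5%). In the 46 mice (background 21.8%) neither was (*Jun* adjusted p = 0.902), and *Atf3* (adjusted p = 0.0346) and *Ier2* (adjusted p = 0.0210) were called in their place. In control mice the fit over 46 mice added *Fos* (adjusted p = 0.0173) to the 4 members (background 44.0%). The stress-induced factor gene *Atf3* had its highest mean in *Bmal1*IEC-/- mice at CT17, with 62.1, 62.5, 95.8 and 97.6 normalized counts, above all 4 values at CT13 (31.0, 32.4, 39.2 and 53.2).

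A rhythm called in one genotype and not in the other does not show that the genotypes differ, so the difference itself was tested. For a change of the 24 h rhythm 0 of 10 members were called (edgeR, background 1.92%), and 0 of 10 had an unadjusted p under 0.05 (15.3% of all genes). The smallest adjusted p was 0.350, for *Egr1*. In the test of any genotype by time interaction 0 of 10 were called (background 3.98%), and 2 had an unadjusted p under 0.05 (19.0% of all genes), *Junb* (adjusted p = 0.0669) and *Egr1* (adjusted p = 0.234). For *Junb* the adjusted p ranged from 0.0185 to 0.409 when single mice were left out. It was under 0.05 in 5 of 48 such fits, without control CT9 replicate SV401, *Bmal1*IEC-/- CT1 replicate SV479 or SV480, or *Bmal1*IEC-/- CT9 replicate SV410 or SV418. Over the 46 mice it was 0.605.

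Between genotypes over the whole day, 1 of 10 members was called at an adjusted p under 0.05 (background 12%: 6.40% higher and 5.56% lower), and 0 of 10 also had a fold change of 1.5 (background 1.35%). The members' log2 fold changes (*Bmal1*IEC-/- minus control, from a model with circadian time) had a median of -0.16, against 0.00061 over all genes tested. There were 3 members with a positive and 7 with a negative value.

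*Klf6* was the member called. Its normalized counts ran from 448 to 1595 in control mice, with a median of 702, and from 587 to 1823 in *Bmal1*IEC-/- mice, with a median of 860.5. The genotypes overlapped over the day as a whole, and the *Bmal1*IEC-/- fit was higher at 6 of 6 times, by 0.0010 on the log2 scale at CT1 and by 0.58 at CT13. Over the 46 mice it was higher at 5 of 6 times, and -0.10 at CT1. The log2 fold change was 0.26 ± 0.08 (SE, n = 24 each) with an adjusted p of 0.0287 in edgeR, and 0.26 with an adjusted p of 0.0290 over the 46 mice. At CT13 the 4 control mice (448 to 579) lay below all 4 *Bmal1*IEC-/- mice (587 to 931), with an adjusted p of 0.0918 in edgeR. The call was lost without CT13 (log2 fold change 0.19, edgeR adjusted p = 0.171) and without CT17 (0.23, adjusted p = 0.0978). It was kept without CT5 (adjusted p = 0.0406) and without CT21 (adjusted p = 0.0481). The adjusted p was 0.0525 without *Bmal1*IEC-/- CT13 replicate SV395 and 0.319 in a fit with no term for time. In edgeR's test of genotype by time interaction *Klf6* had an adjusted p of 0.560. With 4 mice a group, this does not show that the difference was alike at all times. The fitted log2 difference was also small at CT9 (0.014) and larger at CT17 (0.43). Epithelial markers moved the same way. Of 7, 5 were higher and 0 lower without epithelial *Bmal1* (6.40% and 5.56% of all genes), with a median log2 fold change of 0.23 and summed levels of 4881 to 7271 CPM in control and 5682 to 10082 CPM in *Bmal1*IEC-/- mice, the highest being SV385 and the next 7842 CPM. Of 6 smooth muscle markers 1 was lower and 0 higher, with a median of -0.24. At an unadjusted p under 0.05 in edgeR 6 of 6 were lower, against 26.4% of all genes in either direction. Their sums were 3522 to 5620 CPM in control and 881 to 5272 CPM in *Bmal1*IEC-/- mice, the lowest being SV385 and the next 3162 CPM. Over the 46 mice, an alternative chosen after seeing the data, 3 epithelial markers were higher and 1 lower (4.83% and 5.72% of all genes, median 0.15), and 2 smooth muscle markers were lower (median -0.19). No marker of either list was at 0 in every mouse. Of the other marker lists, 3 of 6 goblet cell markers were higher and 1 lower, and 1 of 6 for fibroblasts, 2 of 4 for endothelium, 1 of 5 for enteric neurons and glia and 1 of 2 for interstitial cells of Cajal were lower. Markers of T cells, B cells, macrophages, erythroid cells and pancreas gave 0 calls in edgeR. At an unadjusted p under 0.05 there were 2 of 4 T cell markers and 0 of the others (26.4% of all genes). The part of these markers in the *Klf6* difference was not tested.

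**Figure D3:**
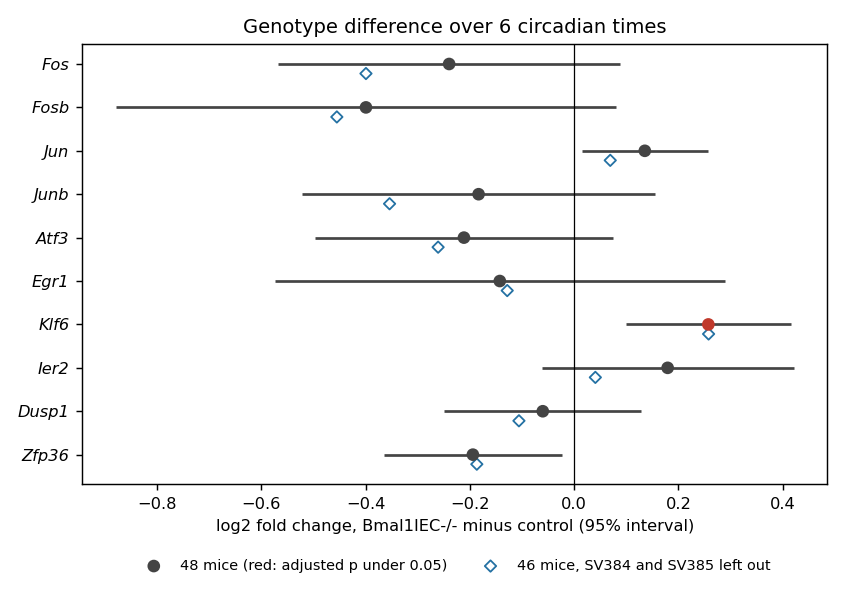
Log2 fold change of each immediate early gene, *Bmal1*IEC-/- minus control (x axis), over 48 mice with its 95% interval (points and lines; red where the edgeR adjusted p is under 0.05), and over 46 mice without SV384 and SV385 (open diamonds). *Klf6* is the red point at 0.26, and of the other 9 members the intervals of *Jun* and *Zfp36* leave out 0 before adjustment.

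For the AP-1 genes the day-wide differences did not pass. *Jun*, the main Jun family subunit, had a median of 163 (136 to 222) normalized counts in control mice and 172 (121 to 309) in *Bmal1*IEC-/- mice. The ranges overlapped, with a log2 fold change of 0.14 ± 0.06 (edgeR adjusted p = 0.147) that came to 0.07 over the 46 mice. *Fos*, its partner, had medians of 149 (62.7 to 331) and 116 (69.3 to 413), with a log2 fold change of -0.24 ± 0.17 (adjusted p = 0.379), and -0.40 (adjusted p = 0.103) over the 46 mice. *Fosb*, a Fos relative, had medians of 8.50 (3.01 to 35.3) and 8.06 (1.12 to 19.3), with a log2 fold change of -0.40 ± 0.24 (adjusted p = 0.305), and -0.46 (adjusted p = 0.288) over the 46. *Junb* had -0.18 ± 0.17 (adjusted p = 0.538), -0.35 (adjusted p = 0.0838) over the 46 mice, and -0.43 (adjusted p = 0.0475) when CT1 was left out, the only setting tried in which it was called. *Jun* shares 232 exon bases with its antisense gene *Junos*, whose reads cannot be told apart if strand was not used.

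Among the other members, *Zfp36* had medians of 219 (169 to 297) in control and 194 (96.6 to 304) in *Bmal1*IEC-/- mice. Its log2 fold change was -0.19 ± 0.09 (edgeR adjusted p = 0.138), with the *Bmal1*IEC-/- fit lower at all 6 times. *Dusp1* had medians of 91.4 (46.6 to 139) and 86.2 (54.0 to 138), and the interval of its log2 fold change ran from -0.25 to 0.13. *Atf3* had a log2 fold change of -0.21 ± 0.15, *Egr1* of -0.14 ± 0.22 and *Ier2* of 0.18 ± 0.12, with adjusted p from 0.370 to 0.727. Without SV384 and SV385 these came to -0.26, -0.13 and 0.04, *Dusp1* to -0.11 and *Zfp36* to -0.19. The *Egr1* interval, from -0.57 to 0.29, was the second widest of the 10 after that of *Fosb*.

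At single circadian times, calls among the members came at CT1 alone, where 3 of 10 were called (background 24.7%). At CT5 (background 0.376%), CT9 (1.46%), CT13 (3.58%), CT17 (0.876%) and CT21 (0.328%) there were 0 of 10 in edgeR. At an unadjusted p under 0.05 there were 0, 0, 4, 1 and 0. The backgrounds given are for the adjusted p. The share of all genes at an unadjusted p was not worked out for single times, so these last counts have no background. At CT1 *Junb* was higher in *Bmal1*IEC-/- mice by 1.33 ± 0.40 (log2, SE; edgeR adjusted p = 0.0132) and *Ier2* by 0.79 ± 0.30 (adjusted p = 0.0472). *Egr1* was lower by a log2 fold change of -1.27 ± 0.46 (adjusted p = 0.0389), with 3 control mice at 213 to 261 normalized counts, the other at 78.4, and the 4 *Bmal1*IEC-/- mice at 42.8 to 124. None of these calls held without SV384 and SV385. Over the 46 mice 0 of 10 members were called at CT1 (background 1.21%), with log2 fold changes of 0.48 for *Junb* (adjusted p = 0.618), -0.14 for *Ier2* (adjusted p = 0.874) and -2.15 for *Egr1* (adjusted p = 0.0605). Leaving out SV385 alone took *Junb* to 0.49 (adjusted p = 0.442) and *Ier2* to 0.16 (adjusted p = 0.762). *Ier2* and *Egr1* each lost the call in 6 of 8 fits that left out 1 mouse of CT1.

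In SV385, with the fewest counts of smooth muscle markers, 8 of 10 members were the highest of their group. It had 413 normalized counts of *Fos*, 309 of *Jun*, 126 of *Junb*, 186 of *Ier2* and 96.1 of *Atf3*. SV384 had 208 of *Fos*, 283 of *Jun* and 121 of *Egr1*. The 2 other mice of the group had 69.3 and 72.3 of *Fos*, 180.4 and 183 of *Jun*, and 42.8 and 48.2 of *Egr1*. SV384 and SV385 both lay above the 2 other *Bmal1*IEC-/- mice at CT1 in 7 of 10 members, and not for *Junb*, *Klf6* and *Zfp36*. The shares of all genes with these patterns were not worked out, so the counts cannot be read as particular to the members. Of all genes tested, 24.7% were called between genotypes at CT1 with this pair and 1.21% without it (edgeR adjusted p under 0.05).

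*Fos* at CT13 was the one member and time that gained a call over the 46 mice. Control mice had 128, 183, 273 and 329.7 normalized counts and *Bmal1*IEC-/- mice 84.8, 90.3, 99.5 and 125, so that every control mouse was higher. The log2 fold change was -1.19 ± 0.39 (edgeR adjusted p = 0.0789) over 48 mice and -1.18 (adjusted p = 0.0205) over 46, where 1 of 10 members was called at CT13 (background 4.43%). At CT17 the *Fos* means were 139 ± 14.2 in control and 177 ± 39.7 in *Bmal1*IEC-/- mice (SD, n = 4 each).

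Some members varied together from mouse to mouse. After each mouse's log2 CPM was set against the mean of its genotype and time, 40 of 45 pairs had a positive Pearson's r over 48 mice. Of the 45 pairs 13 had a Benjamini-Hochberg adjusted permutation p under 0.05, all 13 positive, and 9 by Spearman's rho. The shares of all gene pairs with such values were not worked out, so these counts have no background. A member's median r with the other members ran from 0.063 (*Klf6*) to 0.49 (*Fos*), and with all genes tested from -0.046 to 0.014. Of all genes tested, the closest to a member was another member only for *Junb*. The gene closest to *Ier2*, not a member, had r = 0.82. Genes of 1 mouse share a library, so depth, tissue makeup and handling are shared as well. The closest pair was *Junb* and *Ier2*, with r = 0.73 (permutation p = 9e-05, adjusted 0.00135) and rho = 0.55 (p = 0.00075, adjusted 0.00844). This r was 0.59 without SV385 and SV410, the 2 mice farthest from the median in *Junb*. It was 0.77 within control and 0.71 within *Bmal1*IEC-/- mice. In each pair the 2 mice left out were chosen on the first gene named alone. *Fos* and *Egr1* had r = 0.70 (permutation p = 3e-05, adjusted 0.000675) and rho = 0.69 (p = 4e-05, adjusted 0.0018), with r = 0.67 without SV415 and SV385. *Fos* and *Atf3* had r = 0.61 (permutation p = 3e-05, adjusted 0.000675) and rho = 0.60 (p = 9e-05, adjusted 0.00203), and r = 0.51 without the same 2 mice. *Fos* also went with *Fosb* (r = 0.59), *Ier2* (0.54) and *Dusp1* (0.49). For *Klf6*, r ran from -0.29 with *Junb* to 0.36 with *Egr1*. Within control mice *Klf6* had r = 0.50 with *Egr1*, 0.48 with *Atf3* and 0.36 with *Fos*, and within *Bmal1*IEC-/- mice 0.21, 0.027 and -0.20. In the same order of genotypes it had 0.39 and -0.34 with *Fosb*, 0.41 and 0.33 with *Jun*, and -0.27 and -0.31 with *Junb*. SV384 and SV385 are in these values, and a difference between genotypes was not tested.

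**Figure D4:**
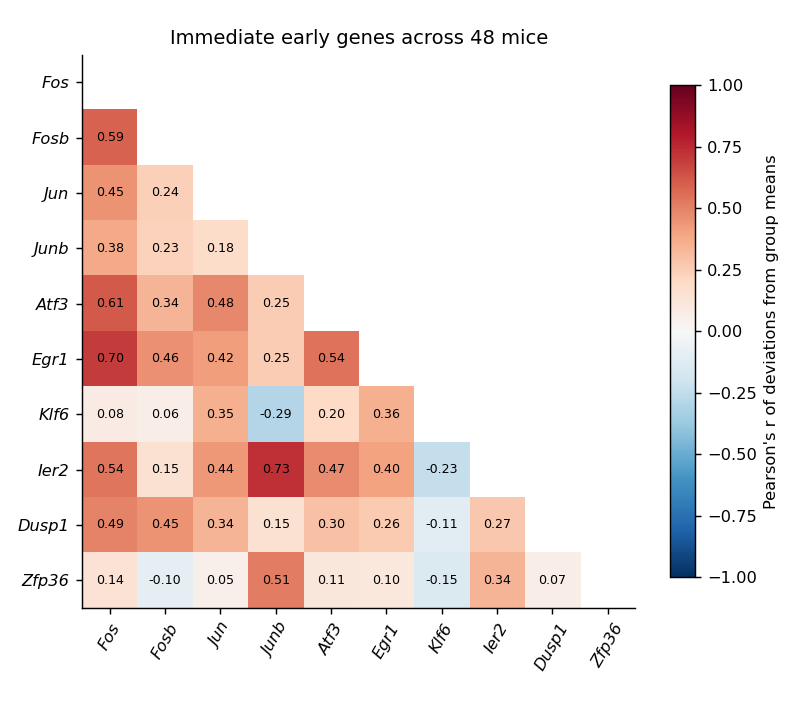
Pearson's r between immediate early genes over 48 mice, computed on deviations of log2 CPM from the mean of each genotype and time (color and number in each cell). The highest cells are *Junb* with *Ier2* (0.73) and *Fos* with *Egr1* (0.70), and the *Klf6* row runs from -0.29 to 0.36 among pairs.

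Of all other genes tested, those whose deviations followed the 10 members most closely, by the median of the 10 values of r over 48 mice, were *Nr4a1* (0.50), *Dusp6* (0.44), *Dusp5* (0.44), *Trib1* (0.44), *Slc22a18* (0.44), *Irs2* (0.42), *Acaa2* (0.41), *Adipor1* (0.40), *Prelid1* (0.39) and *Tmed3* (0.39). *Nr4a1*, an orphan nuclear receptor gene that is itself an immediate early gene, was closest to *Fos* (r = 0.76). *Irs2*, an adaptor of insulin signaling, was closest to *Egr1* (r = 0.77). At the other end were *Alkbh1* (-0.51), *Mir145a* (-0.46), *Pde3b* (-0.46), *Gm37795* (-0.46) and *Scn7a* (-0.44).

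Other immediate early genes, were taken from lists drawn up for comparison. Of 10 further transcription factors tested, 1 was higher and 1 lower (6.40% and 5.56% of all genes), with a median log2 fold change of -0.16. *Nr4a2*, an orphan nuclear receptor gene, rose from 31.9 ± 14.1 normalized counts among controls to 49.4 ± 15.6 without epithelial *Bmal1* (SD, n = 24 each), and its log2 fold change was 0.65 (edgeR adjusted p = 0.000195). *Csrnp1*, a gene induced by axin, had 21.4 ± 9.02 and 14.8 ± 6.16, a log2 fold change of -0.50 (adjusted p = 0.0209). *Nr4a1* had -0.40 (adjusted p = 0.0823), and -0.51 (adjusted p = 0.0274) over the 46 mice, and the growth gene *Myc* 0.22 (adjusted p = 0.0714). *Jund*, which completes the Jun family, was listed at 0 in every mouse, as was *Egr4*, and 877 of the 1668 exon bases of *Jund* also belong to *Gm11175* on the opposite strand. *Batf*, *Egr2*, *Egr3* and *Fosl1* had too few counts to be tested.

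Of 19 immediate early effectors tested, 1 was higher and 4 were lower, against the same 6.40% and 5.56% of all genes. *Ier5*, a gene of the stress response, rose from 109 ± 26.9 to 148 ± 23.7 normalized counts (SD, n = 24 each), a log2 fold change of 0.46 (edgeR adjusted p = 6.1e-05). The lower genes were *Rgs1* (log2 fold change -0.37) and *Rgs2* (-0.24), which damp G protein signals, the survival gene *Mcl1* (-0.13) and the matrix protein gene *Ccn2* (-0.40). Of 14 MAP kinase phosphatases and feedback inhibitors 0 were higher and 2 lower (12% of all genes in either direction), the phosphatase gene *Dusp10* (-0.37, adjusted p = 0.0199) and the inhibitor *Spry1* (-0.25, adjusted p = 0.0124). *Dusp6*, which acts on ERK kinases, had 0.21 (adjusted p = 0.0749). Of 22 upstream kinases and serum response factors 0 were called by edgeR against that 12%, and 1 had an unadjusted p under 0.05 (26.4% of all genes). This was *Elk3* (-0.20, adjusted p = 0.0977), followed by *Rps6ka5* (-0.24, adjusted p = 0.216) and *Rps6ka1* (0.09, adjusted p = 0.305). In control mice 5 of 10 further transcription factors, 11 of 19 effectors, 6 of 14 phosphatases and inhibitors and 9 of 22 upstream genes differed between times (edgeR, background 40.2%). In *Bmal1*IEC-/- mice 1 of 10, 1 of 19, 3 of 14 and 4 of 22 did (background 28.5%). With the 46 mice the counts were 6, 12, 7 and 10 in control mice (background 44.0%) and 0, 3, 3 and 4 in *Bmal1*IEC-/- mice (background 21.8%), and between genotypes 3, 5, 2 and 0 genes were called (10.5% of all genes), *Nr4a1* being the one added. Whether these shares differed between genotypes was not tested.

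Genes induced by glucocorticoids and by heat are often induced beside these. Of 7 glucocorticoid-induced genes 2 were higher, the kinase gene *Sgk1* (721 ± 413 and 1086 ± 358 normalized counts, log2 fold change 0.75, edgeR adjusted p = 4.28e-05) and *Tsc22d3* (0.41), and 2 were lower, the clock gene *Per1* (-0.56) and *Klf9* (-0.20), against 12% of all genes called in either direction. All 7 differed between times in control mice (background 40.2%). Of 8 heat shock genes 1 was lower, the small chaperone gene *Hspb1* (-0.40, adjusted p = 0.0141; 12% of all genes called), and all 8 differed between times in control (background 40.2%) and in *Bmal1*IEC-/- mice (background 28.5%). The genotype counts of these lists were again 4 and 1 over the 46 mice. *Hspa8* had 0.13 (adjusted p = 0.380) and *Hspa1a*, which has a near-identical copy and is uncertain for that reason, -0.64 (adjusted p = 0.179). The summed level of the heat shock genes in control mice was lowest at CT1 (1565 CPM) and highest at CT13 (5112 CPM), as for *Junb* and *Ier2*. The glucocorticoid-induced list (493 and 1403 CPM) and the upstream kinase list (1866.5 and 2036 CPM) had the same times. In *Bmal1*IEC-/- mice the heat shock sum was lowest at CT5 (1703 CPM) and highest at CT17 (3585 CPM). A link between these lists and the members was not tested.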

How the data were processed

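RNA from whole colon of 48 mice was sequenced by the authors after TruSeq stranded library preparation. Per the labels and methods, reads were trimmed with Trimmomatic 0.39, aligned to mm10 with STAR 2.7.5c and counted on exons with featureCounts 1.4.6. What the authors deposited is a table of raw counts, in whole numbers. The strand setting of the counting is not given in the sources used here. No sequencing batch is given either, so none was modelled.

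Symbols and GRCm38 positions came from GENCODE vM21, matched on stable identifiers. Genes passing filterByExpr over 12 groups (14618) were tested in edgeR 4.0.16 with TMM normalization and quasi-likelihood F tests, with Benjamini-Hochberg adjustment over all of them. The models held genotype and time, the 12 groups, or genotype with a 24 h cosine. To show levels, each count was divided by its mouse's size factor (DESeq2 1.42.0, all 48 mice). An own implementation of JTK_cycle (24 h period, 12 phases in steps of 2 h, exact null, adjusted over phases, threshold 0.05) was run per genotype. Correlations used 100000 permutations of deviations from group means. Software was R 4.3.3 with limma 3.58.1, and Python 3.11.15 with scipy 1.17.1, pandas 2.3.3, numpy 2.4.6 and, for plots, matplotlib 3.10.9. Steps were tested on simulated data. The alternatives were other normalizations, no filter, limma voom, DESeq2, no time term, and leaving out each mouse, each time or SV384 and SV385, which the study's rhythm analysis did not include. The fit of the gene lists without these 2 was added after seeing the data.

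The 10 members, the 6 lists of related genes and the 12 marker lists were chosen with earlier results of these data known. Text names the members, up to 3 genes of each related list with the smallest genotype p and any called with a fold of 1.5, and the 10 most and 5 least alike genes. Others (*Mcl1*, *Ccn2*, *Per1*, *Jund*, *Egr4*) were named after their values were seen. At this depth a count of 0 allows up to 3 counts, for counting error only. Each mouse was 1 sample.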

Additional observations from a re-analysis of the deposited data

Results flagged for a closer look

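In 8 of 120 groups of 4 mice, 1 mouse stood apart from the 3 others. The gap from that mouse to its nearest neighbour, as a share of the group's range, was above the 95% limit of Dixon's test for 4 values. About 1 in 20 groups passes by chance, which is 6 of 120. In 7 of the 8 the mouse was the highest. *Egr1* in control CT5 replicate SV446 was 252 normalized counts with the next at 52.1 (share 0.958), and *Fos* in the same mouse was 180.3 with the next at 77.7 (share 0.872). *Fos* in control CT9 replicate SV415 was 292 with the next at 86.5 (share 0.960). *Junb* in *Bmal1*IEC-/- CT1 replicate SV385 was 126 with the next at 35.6 (share 0.881). *Fosb* in *Bmal1*IEC-/- CT9 replicate SV410 was 11.3 with the next at 8.24 (share 0.843). *Klf6* in control CT13 replicate SV396 was 579 with the next at 469 (share 0.841), and *Zfp36* in control CT21 replicate SV476 was 265 with the next at 189 (share 0.836). The low one was *Egr1* in *Bmal1*IEC-/- CT13 replicate SV450, at 18.3 with the next at 36.8 (share 0.962). SV415, SV446 and SV476 were each the highest of their group in 7 of 10 members. The share of all genes for which this held was not worked out.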

How the results depend on the processing

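The day-wide genotype difference was called for 1 member in the main fit, for 0 with no time term, without CT13 and without CT17, and for 2 without CT1, where *Egr1* turned from -0.14 to 0.12 on the log2 scale. Leaving out 1 mouse gave 0 to 1 members, and *Egr1* ran from -0.26 to 0.026, positive without control CT5 replicate SV446. With no filter on low counts the interaction called 6 members in place of 0 (5.23% of 32527 genes) and the time course in *Bmal1*IEC-/- mice 9 in place of 2 (13.2%), and the cause was not tested. Over the 46 mice the calls at single times went from 3 to 1, *Jun* at CT1 from 0.39 to -0.011 and *Ier2* from 0.79 to -0.14, and the rhythm in *Bmal1*IEC-/- mice called 4 members in place of 1 over 22 mice. Leaving out 1 mouse gave 0 to 1 members for the interaction, 0 to 3 for the time course in *Bmal1*IEC-/- mice (0 without SV384), 1 to 3 for its rhythm, and 1 to 5 calls at single times (1 without control CT1 replicate SV468, 5 without control CT9 replicate SV415). The change of rhythm called 0 members under every setting run, and the rhythm in control mice 4 to 5 and its time course 4 to 5 with 1 mouse left out. Of 332 values of single members under the other settings, 299 kept their direction and side of the threshold. DESeq2 size factors, library size alone, limma voom and DESeq2 each called *Klf6* between genotypes, with adjusted p over all settings from 0.00747 to 0.319.

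No paired analysis was possible because each mouse has its own number. With 4 mice a group and spreads this wide, the interval of a day-wide difference reached from -0.88 to 0.08 for *Fosb*. Depth limits *Fosb*, with a median of 9 counts, more than any other member. No batch was given, and SV384 and SV385 make up 2 of the 4 mice of its group.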
